A study of Mus musculus with 4 samples.

Results

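The genes of the translation initiation factors (eIF) and elongation factors (eEF) were followed in splenic B cells of ΔleftPAL and ΔIRIS mice, at rest and after culture with LPS. The members were taken by name: symbols that begin with Eif or Eef and a number, without the eIF2 kinases (Eif2ak), the Y-linked Eif2s3y and pseudogenes marked as such. This gave 59 of 41342 named genes, of which 55 passed a minimum mean of 50 counts over the libraries, among 11286 genes that passed it. Eef1a2, Eif4e1b and Eif2c5 had 0 reads in each library. Eif4ebp3 had 21 and 10 reads in resting and LPS-cultured ΔleftPAL cells and 21 and 9 in ΔIRIS cells, and 67.3% of its exon bases also belong to Ankhd1. These 4 genes were not tested. The kallisto estimates placed between 34.0 and 70.1 counts on Eif4e1b, an oocyte paralog of Eif4e, so its 0 holds for the gene counts alone. Eif2c5 was matched by its name alone and may not be a factor of this machinery.

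Both lines carry changes in the 3' regulatory region (3'RR) of the immunoglobulin heavy chain locus and have the 129 background. ΔleftPAL mice lack the hs3a and hs1,2 enhancers with the sequence between them, whereas ΔIRIS mice keep all the enhancers, hs3a inverted, and have lost the inverted repeats that lay between them. Freshly isolated B cells gave 1 library per genotype. The other came from B cells kept in culture for 48 h in the presence of LPS (5 μg per ml), a component of bacterial walls that makes B cells divide and turn into antibody-secreting cells. Each library pools the cells of several animals, 4 by the sample descriptions, whereas the text of the study describes the pools and the number of mice otherwise. The mice used for RNA were males aged 8 to 12 weeks, and both lines passed through ES cells and cre deletion of a selection cassette. The wt libraries were not used here, and no culture without LPS was analysed, so that LPS and the time in culture cannot be told apart.

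Gene counts summed to between 23621743 and 29778717 per library. Levels are given as CPM, counts scaled to a common library size with TMM factors, and 3 counts correspond to between 0.102 and 0.123 CPM. With 1 library per genotype and condition, the change on LPS could be tested only as a change shared by both genotypes (edgeR quasi-likelihood test, additive fit, 1 residual degree of freedom, Benjamini-Hochberg over 11286 genes), and values of single pairs of libraries carry no replicate check. The B cell markers Cd79a, Cd79b, Ms4a1 and Pax5 were present in all libraries, but lower after LPS: they summed to 2526 and 2153 CPM in resting ΔleftPAL and ΔIRIS cells and to 1575 and 1705 CPM after LPS, and 3 of the 4 fell. The resting libraries also held RNA of other cells. The 5 erythroid genes summed to 41238 and 28559 CPM in resting ΔleftPAL and ΔIRIS cells and to 58.1 and 124 CPM after LPS, and the 5 myeloid genes to 288 and 385 CPM at rest and to 6.79 and 16.0 CPM after LPS. The 5 T cell genes summed to 19.3 and 25.2 CPM at rest and to 0.111 and 0.034 CPM after LPS. The 5 proliferation genes rose together, from 477 and 600 CPM at rest to 3475 and 3916 CPM.

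Translation begins when eIF2 carries the initiator tRNA to the small ribosomal subunit, while eIF4F binds the mRNA cap, unwinds the leader and, through eIF3, recruits that subunit. eIF1, eIF1A and eIF5 control the choice of the start codon, and eIF2B recharges eIF2 with GTP. Elongation then needs eEF1, which brings charged tRNAs, eEF2, which moves the ribosome along, and eIF5A, which relieves stalls. Resting B cells are small cells with little protein synthesis, and activated B cells grow, divide and secrete antibody.

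On LPS, 47 of the 55 genes tested rose (85.5%, with 36.4% of all genes tested called higher), and 4 fell (7.27%, with 27.9% of all genes called lower). The median log2 ratio of LPS over resting was 1.15 in ΔleftPAL and 1.18 in ΔIRIS cells, against 0.12 and 0.13 over all genes tested. In both genotypes 31 of the 55 were at least 2-fold higher after LPS (18.4% of all genes), a number that was 19 in TPM, the transcript-based estimates (11.3% of all genes there), and 1 was at least 2-fold lower (14.0% of all genes). Together the 59 genes took 1.38% and 1.34% of the counts of named genes in resting ΔleftPAL and ΔIRIS cells, and 2.27% and 2.29% after LPS. In bulk RNA, fewer cells of a type and less RNA per cell cannot be told apart, and CPM measure shares of the RNA, not RNA per cell.

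**Figure D1:**
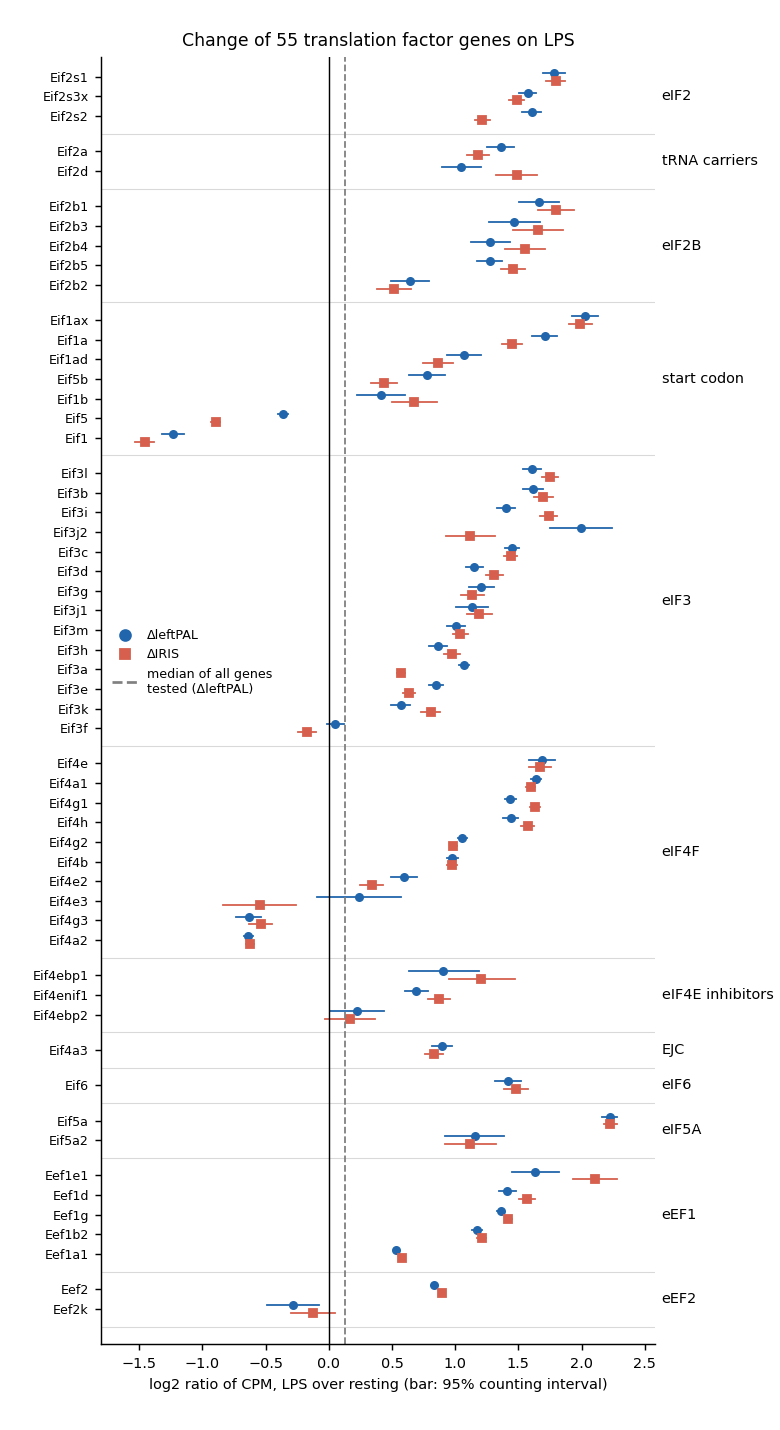
Log2 ratio of CPM, LPS over resting, for the 55 genes tested, 1 point per genotype, ordered by role. Bars are 95% intervals that cover counting error only. The points of most genes lie right of 0 and of the median of all genes (0.12), and the 4 that fell (Eif1, Eif5, Eif4a2 and Eif4g3) and Eef2k, which did not pass the test, lie left of 0 in both genotypes.

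The 3 subunits of eIF2 rose. Eif2s1, the subunit whose phosphorylation shuts down initiation under stress, was at 56.8 CPM in resting and 195 CPM in LPS-cultured ΔleftPAL cells, and at 67.0 and 233 CPM in ΔIRIS cells. This was 3.43-fold and 3.47-fold, with a fitted log2 change of 1.79 (SE 0.13, edgeR adjusted p = 0.000318). Eif2s3x, the GTP-binding subunit and the most abundant of the 3 by CPM per kilobase of gene model in each library, though in TPM only in resting ΔleftPAL cells, went from 94.3 to 281 CPM in ΔleftPAL and from 113 to 318 CPM in ΔIRIS cells, a fitted log2 change of 1.53 (SE 0.12, edgeR adjusted p = 0.000422). Eif2s2 gained 1.41 on the same scale. For these 3 genes both LPS libraries lay above both resting libraries. The share of all genes with this order was not counted, and 36.4% of all genes tested were called higher. Eif2a and Eif2d, which can carry initiator tRNA in place of eIF2, also rose, by 1.27 and 1.26.

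All 5 subunits of eIF2B, the exchange factor of eIF2, rose as well, with fitted log2 changes from 0.58 for Eif2b2 to 1.73 for Eif2b1. Eif2b1, a regulatory subunit, was at 17.8 and 56.2 CPM in resting and LPS-cultured ΔleftPAL cells and at 18.4 and 64.0 CPM in ΔIRIS cells (SE 0.13, edgeR adjusted p = 0.000366). Eif2b5, which holds the catalytic site, was the most abundant of the 5 by CPM per kilobase, but in TPM Eif2b2 was in each library. Eif2b5 rose from 46.9 to 113 CPM and from 44.4 to 122 CPM. Eif2b2 stood apart with 22.9, 35.8, 25.9 and 36.9 CPM in the same order, and its fitted change of 0.58 (SE 0.13) had an edgeR adjusted p of 0.0129. Thus the carrier and its recharging factor moved the same way, with 8 of 8 genes higher. Of the 55 members tested 85.5% were called higher, and of all genes tested 36.4%.

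The factors that act at the start codon did not share a direction, since 5 of 7 rose and 2 fell. Eif1ax rose from 38.4 to 157 CPM in ΔleftPAL cells and from 43.2 to 172 CPM in ΔIRIS cells, with a fitted log2 change of 2.01 (SE 0.13, edgeR adjusted p = 0.000259). Eif1a, a near-identical copy that also encodes eIF1A, rose from 41.9 to 137 CPM and from 62.1 to 169 CPM (1.58 on the log2 scale), and reads could be split between these copies. Eif1, which makes scanning ribosomes reject wrong start codons, showed the opposite change. It was at 139 CPM in resting and 58.9 CPM in LPS-cultured ΔleftPAL cells, and at 185 and 67.5 CPM in ΔIRIS cells. Its level was thus 2.35-fold and 2.74-fold lower after LPS, and the fitted log2 change was -1.35 (SE 0.13, edgeR adjusted p = 0.000742). No other gene of the 55 was at least 2-fold lower in either genotype, where 16.5% of all genes were in ΔleftPAL and 18.2% in ΔIRIS cells. In TPM Eif1 went from 308 to 163 in ΔleftPAL cells, which is less than 2-fold, and from 404 to 175 in ΔIRIS cells, where Eif5 (from 313 to 143) and Eif4a2 (from 1638 to 761.9) were also at least 2-fold lower.

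Eif1b, the paralog of Eif1, rose from 16.3 to 21.6 CPM and from 14.6 to 23.3 CPM (0.54 on the log2 scale, SE 0.16, edgeR adjusted p = 0.0272), a call that was lost with total counts, with TMM factors from the genes tested alone and with DESeq2 (adjusted p up to 0.0785). Per kilobase, Eif1 exceeded Eif1b 3.73-fold and 5.55-fold in resting ΔleftPAL and ΔIRIS cells, and 1.19-fold and 1.27-fold after LPS. Eif5, which triggers GTP hydrolysis on eIF2, was at 472 and 367 CPM in ΔleftPAL cells and at 732 and 393 CPM in ΔIRIS cells, a fitted log2 change of -0.63 (SE 0.16, edgeR adjusted p = 0.0201). By CPM per kilobase it was the most abundant gene of this group in each library, whereas in TPM Eif1 was. Eif5b, the GTPase that joins the subunits, gained 0.60 (SE 0.14, edgeR adjusted p = 0.0137, and 0.151 without the genotype term) and Eif1ad gained 0.96. Eif1 sits at chr11:100319885-100322096 (plus strand) and Eif5 at chr12:111538101-111546753 (plus strand) in GRCm38. The erythroid and myeloid RNA of the resting libraries was lost over the same culture, with 5 of 5 erythroid and 2 of 3 tested myeloid genes lower, and with S100a8 and S100a9 at 0 after LPS. The part of these cells in the lower levels of Eif1 and Eif5 was not tested.

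Of the 14 genes of eIF3, the large scaffold on the small subunit, 13 rose and Eif3f did not pass the test. The largest fitted rise was that of Eif3l, from 89.0 to 271 CPM in ΔleftPAL and from 84.8 to 285 CPM in ΔIRIS cells, with a fitted log2 change of 1.68 (SE 0.13, edgeR adjusted p = 0.000369). Eif3b and Eif3i, which form a module near the mRNA entry, gained 1.65 and 1.57, and Eif3c of the core gained 1.44. Eif3k (0.69), Eif3e (0.74) and Eif3a (0.82) gained less. Eif3e was among the most abundant subunits, with 149.6 and 269 CPM in resting and LPS-cultured ΔleftPAL cells and 194 and 301 CPM in ΔIRIS cells. Eif3f was at 138, 143, 122 and 108 CPM in the same order, with a fitted log2 change of -0.06 (SE 0.13, edgeR adjusted p = 0.701). Among the 12 subunits other than the eIF3j genes, the order changed with Eif3f: it was near the median at rest (47.8 CPM per kilobase against a median of 47.4 in ΔleftPAL cells) and the lowest of the 12 after LPS (49.4 against a median of 113 in ΔleftPAL, 37.5 against 117 in ΔIRIS cells). The last order also held in TPM, where Eif3f had 72.0 and 54.6 after LPS against medians of 156 and 154.

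The loosely bound eIF3j is encoded by Eif3j1 and by Eif3j2, a near-identical copy, so that the split of reads between them is uncertain. Eif3j1 rose from 30.3 to 66.4 CPM and from 39.8 to 90.9 CPM. Its TPM did not show this in ΔleftPAL cells, with 9.48 at rest and 9.12 after LPS, and went from 10.1 to 15.2 in ΔIRIS cells. Eif3j2 was at 7.08 and 28.2 CPM in ΔleftPAL cells and at 11.2 and 24.3 CPM in ΔIRIS cells.

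eIF4F is made of the cap-binding protein eIF4E, the scaffold eIF4G and the helicase eIF4A, each with paralogs, and here the paralogs of eIF4A, and Eif4g3 against the other eIF4G genes, went opposite ways. Of the 10 genes of this group that were tested, 7 rose, Eif4a2 and Eif4g3 fell and Eif4e3 did not pass the test. Eif4a1, at chr11:69666936-69672423 (minus strand), was at 275 CPM in resting and 858 CPM in LPS-cultured ΔleftPAL cells, and at 310.3 and 939 CPM in ΔIRIS cells (fitted log2 change 1.62, SE 0.12, edgeR adjusted p = 0.000351). Eif4a2, at chr16:23107444-23114136 (plus strand), went the other way, from 618 to 397 CPM and from 674 to 438 CPM (fitted log2 change -0.63, SE 0.12, edgeR adjusted p = 0.00589). Both genotypes gave nearly the same values. Per kilobase of gene model, Eif4a1 over Eif4a2 was 0.548 (95% interval 0.533 to 0.564) and 0.567 (0.553 to 0.581) at rest and 2.66 (2.60 to 2.72) and 2.64 (2.59 to 2.70) after LPS. Summed kallisto TPM gave the same direction with lower ratios, 0.344 and 0.212 at rest and 1.03 and 0.914 after LPS, so that after LPS Eif4a1 was the higher paralog by both measures in ΔleftPAL cells and by CPM per kilobase alone in ΔIRIS cells. The rise of Eif4a1 itself was smaller in TPM, from 375 to 624 and from 346 to 697. Short genes, among them the small nucleolar RNA genes Snora81 and Snord2 in Eif4a2, overlap the exon models of both, and reads that fall in 2 genes were not assigned. These short genes were listed at 0, except Gm24616, which shares 10 bases with Eif4a2 and had 136 and 181 reads in resting and LPS-cultured ΔleftPAL cells and 96 and 244 in ΔIRIS cells.

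The scaffolds showed the same kind of split. Eif4g1 rose from 219 to 593 CPM in ΔleftPAL and from 219.7 to 680.4 CPM in ΔIRIS cells (fitted log2 change 1.53, SE 0.13, edgeR adjusted p = 0.000448). Eif4g3 fell from 86.2 to 55.5 CPM and from 80.3 to 55.3 CPM (fitted log2 change -0.59, SE 0.12, edgeR adjusted p = 0.00879). Eif4g1 over Eif4g3 per kilobase was 3.89 and 4.19 at rest and 16.3 and 18.8 after LPS, and 2.69, 3.25, 10.49 and 12.02 in TPM, so Eif4g1 was the higher one throughout. Eif4g2, a homolog that lacks the part that binds eIF4E, was the most abundant scaffold per kilobase. It went from 405 to 842 CPM and from 510.0 to 1009 CPM, a rise of 1.02 (SE 0.12, edgeR adjusted p = 0.0012). Its summed TPM moved the other way, from 883 to 586 and from 974 to 584, and the transcript behind this is given with the transcript classes.

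Eif4e, the cap-binding subunit itself, was at 38.9 and 125 CPM in ΔleftPAL cells and at 48.8 and 155 CPM in ΔIRIS cells, with a fitted log2 change of 1.68 (SE 0.13, edgeR adjusted p = 0.000365), the largest of this group. Eif4e2, a cap-binding protein that does not bind eIF4G, gained 0.46 (SE 0.13, edgeR adjusted p = 0.026), a call that was lost without the genotype term (adjusted p = 0.0564) and with TMM factors from the genes tested alone (adjusted p = 0.0903). Eif4e over Eif4e2 per kilobase went from 2.09 to 4.47 and from 1.99 to 5.02. The ratio rose in TPM also, from 0.389 to 0.691 and from 0.385 to 0.773, but there Eif4e2 was the higher gene in each library. Eif4e3 was at 5.61, 6.61, 8.53 and 5.83 CPM in resting and LPS-cultured ΔleftPAL and ΔIRIS cells, and 14.8% of its exon bases are shared with Gm20696. The helicase cofactors Eif4b and Eif4h, which stimulate eIF4A, gained 0.98 and 1.51.

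Among the genes that restrain eIF4E, Eif4ebp1 rose from 6.59 to 12.4 CPM and from 6.02 to 13.9 CPM (fitted log2 change 1.06, SE 0.20, edgeR adjusted p = 0.00687). Eif4ebp2 was at 13.1 and 15.3 CPM in ΔleftPAL cells and 13.4 and 15.0 CPM in ΔIRIS cells, with a fitted log2 change of 0.19 (SE 0.16, edgeR adjusted p = 0.334). Both proteins compete with eIF4G for eIF4E until mTORC1 phosphorylates them. The Eif4ebp2 level was near that of Eif4ebp1 per kilobase at rest (ratio 1.09, 95% interval 0.898 to 1.32, and 1.22, 1.02 to 1.47) and below it after LPS (0.678 and 0.595). Eif4e over Eif4ebp2 per kilobase went from 1.85 to 5.09 and from 2.25 to 6.40. Eif4enif1, which carries eIF4E into the nucleus, gained 0.78 (SE 0.13, edgeR adjusted p = 0.00388).

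**Figure D2:**
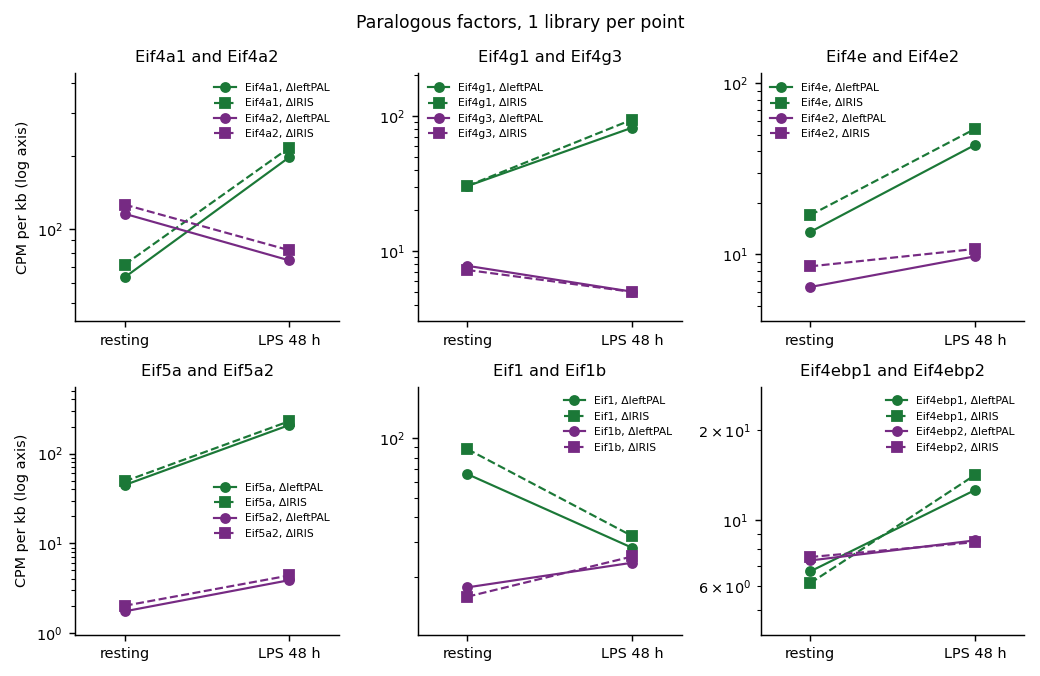
CPM per kilobase of gene model (log axis) of 6 pairs of paralogs in the 4 libraries, with lines joining the resting and the LPS library of a genotype. The lines of Eif4a1 and Eif4a2 cross, from 63.5 and 116 at rest to 198 and 74.4 after LPS in ΔleftPAL cells, and those of Eif1 and Eif1b draw together.

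As the genes moved together, their promoters were searched for 2 short motifs, the E-box CACGTG, a palindrome bound by Myc and related factors, and the ETS motif CCGGAAGT, on both strands. RefSeq promoters (GRCm38.p6, from 250 bases before to 50 after a start) were at hand for 45 of the 59 genes, 59 promoters in all. The E-box was in 14 of them (23.7%), against 10.4% of the promoters of genes tested and 7.15% of all promoters. The ETS motif was in 10 (16.9%), against 8.89% and 3.89%. By genes, the E-box was found in 10 of 36 that rose, in 0 of 4 that fell and in 2 of 3 that did not pass the test, Eif3f and Eef2k, beside 988 of 7968 genes tested. The ETS motif was in 8, 0 and 0 of the same genes, beside 822 of 7968. Eif1ax, Eef1e1 and Eif2s1, which were among the largest rises, held neither motif, and neither did the 5 promoters of Eif1, Eif5, Eif4a2 and Eif4g3. Several promoters of 1 gene overlap, no test was run, and a match is a run of letters, not a site shown to be bound. The 200 bases from 250 to 51 before the start are shown for the helicase pair, 5' to 3' on the strand of the gene with the E-box in capitals, since Eif4a1 holds an E-box and Eif4a2 holds none. They lie at chr11:69672474-69672673 (minus strand) and chr16:23107218-23107417 (plus strand).
Eif4a1: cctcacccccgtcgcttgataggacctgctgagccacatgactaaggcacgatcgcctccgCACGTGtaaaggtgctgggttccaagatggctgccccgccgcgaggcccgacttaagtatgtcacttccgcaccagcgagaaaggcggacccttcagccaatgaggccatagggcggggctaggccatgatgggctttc
Eif4a2: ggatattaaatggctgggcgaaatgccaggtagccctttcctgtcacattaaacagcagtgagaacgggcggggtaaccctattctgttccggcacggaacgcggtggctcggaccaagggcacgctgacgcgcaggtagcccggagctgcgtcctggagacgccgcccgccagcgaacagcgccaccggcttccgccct

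The E-boxes upstream of the other factors with a large rise or a high level are shown with 12 bases on each side, on the strand of the gene, to let their flanks be compared. The inner Eif4e promoter has 2 (chr3:138527028-138527057 and chr3:138527192-138527221, plus strand). They begin 228 and 64 bases before its start at chr3:138527268. The outer Eif4e promoter (chr3:138525941-138526240) holds none. Those of Eif4g1 (chr16:20672661-20672690, plus strand), Eif4h (chr5:134639488-134639517, minus strand), Eif5a (chr11:69920791-69920820, minus strand, for the innermost of its starts) and Eef2 (chr10:81176576-81176605, plus strand) begin 54, 96, 178 and 43 bases before the start. Eif5a has a further E-box, not shown (chr11:69921443-69921472, minus strand), which begins 185 and 74 bases before other starts of the gene.
Eif4e, distal: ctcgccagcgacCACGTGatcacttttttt
Eif4e, proximal: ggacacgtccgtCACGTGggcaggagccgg
Eif4g1: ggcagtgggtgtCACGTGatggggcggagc
Eif4h: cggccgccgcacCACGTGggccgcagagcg
Eif5a: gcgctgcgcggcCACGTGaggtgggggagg
Eef2: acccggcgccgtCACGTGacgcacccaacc

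In CPM, Eif5a had the largest rise of all the factors. In TPM, Eif3j2 rose more in ΔleftPAL cells (6.71 to 30.5, against 123 to 440 for Eif5a). There Eif1ax rose more in ΔIRIS cells (23.5 to 105, against 133 to 506 for Eif5a). Eif5a went from 106 to 495 CPM in ΔleftPAL cells and from 117 to 546 CPM in ΔIRIS cells, 4.66-fold and 4.68-fold. The fitted log2 change was 2.22 (SE 0.12, edgeR adjusted p = 0.000194). Its paralog Eif5a2 rose from 8.76 to 19.5 CPM and from 10.1 to 22.0 CPM (1.14, SE 0.16, edgeR adjusted p = 0.00228), so Eif5a over Eif5a2 per kilobase went from 25.4 to 53.3 and from 24.2 to 52.2. eIF5A works only once a lysine is turned into hypusine, in steps run by Dhps and Dohh. Dohh rose by 0.77 (SE 0.13, edgeR adjusted p = 0.00449), and Dhps was at 22.9 and 24.8 CPM in ΔleftPAL cells and 25.8 and 28.8 CPM in ΔIRIS cells, with an adjusted p of 0.408. Eif6, which keeps the large subunit from joining too early, gained 1.45 (SE 0.12, edgeR adjusted p = 0.000487). Eif4a3, a helicase of the exon junction complex rather than of eIF4F, gained 0.86 (SE 0.12, edgeR adjusted p = 0.00244).

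Of the elongation factors proper, Eef1a1, Eef1b2, Eef1d, Eef1g and Eef2 all rose. Eef1a1, which delivers charged tRNAs, had the highest level of all the factors in each library and one of the smaller changes. It was at 5575 and 8063 CPM in resting and LPS-cultured ΔleftPAL cells and at 4850 and 7234 CPM in ΔIRIS cells, with a fitted log2 change of 0.55 (SE 0.13, edgeR adjusted p = 0.0137). Its exchange factor rose more: Eef1d gained 1.49, Eef1g gained 1.39 and Eef1b2 gained 1.19 (edgeR adjusted p between 0.000489 and 0.000726). Eef2 went from 1870 to 3323 CPM and from 1714 to 3181 CPM (0.86, SE 0.12, edgeR adjusted p = 0.00247). Eef1a1 over Eef2 per kilobase was 3.70 and 3.52 at rest and 3.01 and 2.83 after LPS. Eef1e1, which despite its name is a subunit of the tRNA synthetase complex, rose from 12.2 to 38.0 CPM and from 11.5 to 49.2 CPM (1.87, SE 0.17, edgeR adjusted p = 0.000587). Eef2k, the kinase that inhibits eEF2, was at 16.7 and 13.7 CPM in ΔleftPAL cells and at 19.5 and 17.8 CPM in ΔIRIS cells (-0.21, SE 0.15, edgeR adjusted p = 0.287).

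**Figure D3:**
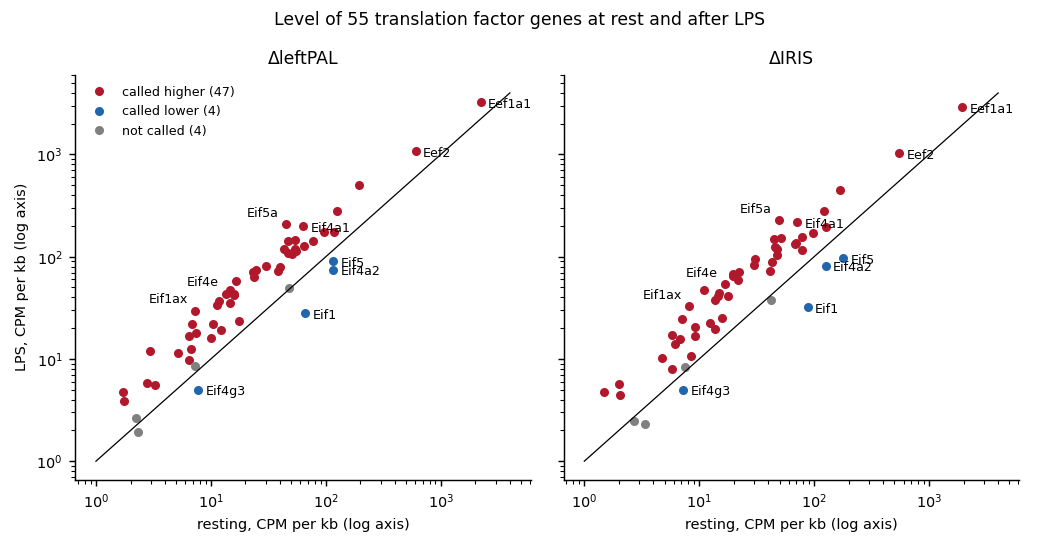
CPM per kilobase of gene model at rest and after LPS (both axes log) for the 55 genes tested, 1 panel per genotype, with the line of equal level. Eef1a1 (2236 to 3234 in ΔleftPAL cells) and Eef2 (604 to 1073) stand above the rest, and the 4 that fell, Eif1, Eif5, Eif4a2 and Eif4g3, lie under the line, as does Eef2k. In the ΔIRIS panel Eif3f (42.3 to 37.5) and Eif4e3 (3.39 to 2.32) lie under it also.

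Per kilobase, the 55 levels spanned 1309-fold in resting and 1687-fold in LPS-cultured ΔleftPAL cells, with medians of 17.7 and 47.5 CPM per kilobase, and 19.7 and 53.9 in ΔIRIS cells. Eef1a1 and Eef2 held the first and the second rank in each library on this scale. In TPM Eef1a1 was again first, whereas Eif4a2 and Eif4g2 were above Eef2 at rest and below it after LPS. The 3 subunits of eIF2 lay within 2.21-fold of each other in each library by CPM per kilobase. The 9 members known as terminal oligopyrimidine (TOP) mRNAs, a class whose translation rather than level follows mTORC1, had 8 rises and a median log2 change of 0.92, against 39 rises and 1.25 for the 46 other members tested. At rest they summed to 8997 and 8078 CPM, most of it from Eef1a1 and Eef2, and the other members to 4384 and 5164 CPM.

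Reads could also be placed on transcripts, by the kallisto estimates. This was looked at after the values of Eif4a1 and Eif4g2 had been seen to differ between counts and TPM. The tables hold 302 transcripts of 58 members, and 28 members had both coding and other transcripts and at least 50 estimated counts in each library. Of these 28, 6 had a coding share at least 10 percentage points higher after LPS in both genotypes (21.4%, with 16.4% of 5834 genes), and 1 had it lower (3.57%, with 1.18% of those genes), shares near the background. The median coding share over the 28 was 90.6% and 91.9% in resting ΔleftPAL and ΔIRIS cells and 94.3% and 94.0% after LPS, beside 85.9%, 86.7%, 91.3% and 92.4% over all these genes in the order resting ΔleftPAL, resting ΔIRIS and both after LPS.

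The largest of these shifts was in Eif4a1. Its coding transcripts held 14.6% of the estimated counts of the gene in resting and 71.1% in LPS-cultured ΔleftPAL cells, and 31.7% and 76.3% in ΔIRIS cells. The coding transcript Eif4a1-213 went from 2140 to 19229 and from 4892 to 24744 estimated counts. The retained-intron transcript Eif4a1-202 went from 11354 to 7045 and from 9515 to 6500. The estimated counts of Eif4a1 summed to 14644 and 27051 in resting and LPS-cultured ΔleftPAL cells, and to 15452 and 32442 in ΔIRIS cells. Its gene counts were lower, at 6721, 23124, 9021 and 27534 in the same order. At rest, Eif4a1-202 alone exceeded the gene count in both genotypes. The reads behind this excess, and their part in the shift of the coding share, were not tested. Eif4a2 showed no such shift, and its retained-intron share stayed above 40% in each library (44.1% and 47.9% in ΔleftPAL and 51.7% and 53.4% in ΔIRIS cells). In Eif4g2, the short noncoding transcript Eif4g2-211 (522 bases) fell from 543 to 200.2 TPM in ΔleftPAL and from 608 to 162 TPM in ΔIRIS cells. The coding transcripts Eif4g2-206 and Eif4g2-213 went up, Eif4g2-206 from 38.0 to 121 and from 55.2 to 146 TPM. The coding share also went up in Eif2a (55.4% to 83.2% and 65.6% to 91.2%), Eif2s2 (82.6% to 97.1% and 82.9% to 97.1%), Eif2b3 and Eif2d. It went down in Eif1, from 87.7% to 77.3% and from 88.6% to 76.3%. These are estimates from 1 library each, with no test.

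**Figure D4:**
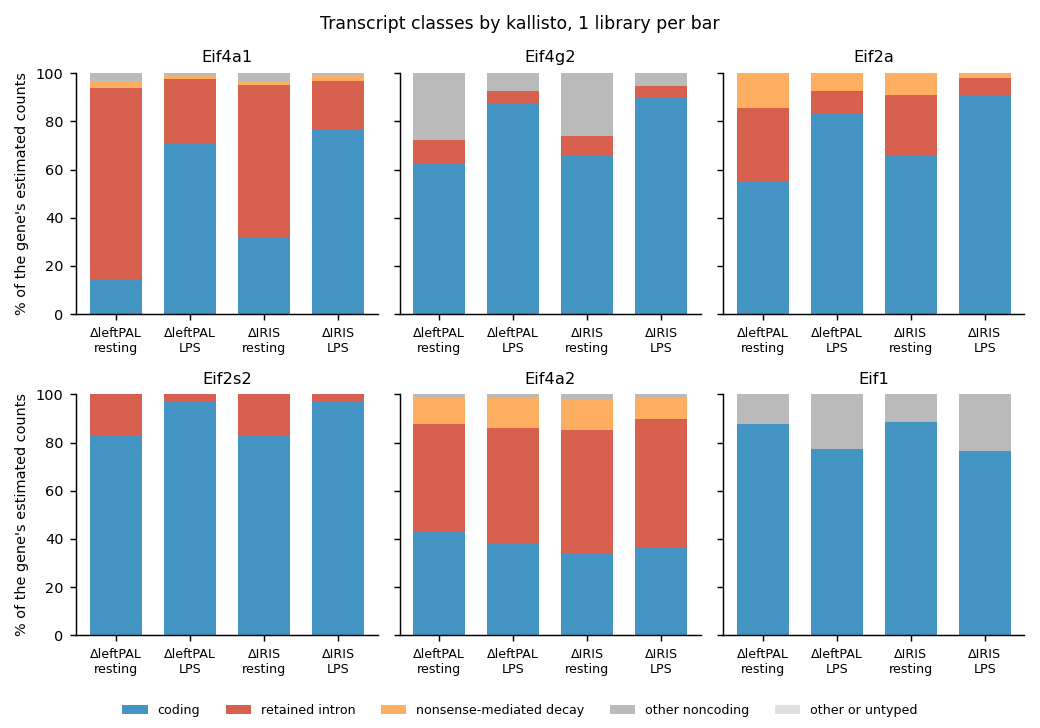
Share of a gene's kallisto estimated counts (percent) on coding, retained-intron, nonsense-mediated decay and other transcripts in each of the 4 libraries, for 6 genes. The coding part of Eif4a1 grows from 14.6% to 71.1% in ΔleftPAL cells and from 31.7% to 76.3% in ΔIRIS cells, that of Eif1 shrinks, and that of Eif4a2 is below 50% throughout.

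Among 43 other genes of translation and its control, 42 were tested, of which 18 rose and 4 fell, shares of 42.9% and 9.52% where all genes tested had 36.4% and 27.9%, so the share that rose was near that of all genes. Etf1 and Gspt1, the release factors, gained 1.70 and 1.67, and Abce1, which splits the ribosome, gained 1.75, so that 5 of 5 tested rose. Of the mitochondrial factors 4 of 6 rose, led by Tufm (1.92). Of the 9 genes listed for mTORC1, its substrates and the MNK kinases of eIF4E 2 rose, Larp1 (0.97), an RNA-binding substrate, and Mlst8 (0.62), a subunit, and the other 7 did not pass the test. The eIF2 kinases and the eIF2 phosphatase did not share a direction. Of the kinase genes Eif2ak3 (-0.82) and Eif2ak4 (-0.54) fell, Eif2ak2 rose (0.83) and Eif2ak1 did not pass the test (-0.24). Of the phosphatase genes Ppp1ca (1.07) and Ppp1r15b (0.40) rose and Ppp1r15a fell. The other gene that fell was Pdcd4. Ppp1r15a, which brings the phosphatase to eIF2, went from 249.99 to 27.0 CPM in ΔleftPAL and from 339 to 23.4 CPM in ΔIRIS cells (-3.53, SE 0.20, edgeR adjusted p = 0.00021). Pdcd4, an inhibitor of eIF4A, went from 104 to 33.9 CPM and from 134 to 17.2 CPM (-2.28, SE 0.33, edgeR adjusted p = 0.00252).

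Between the genotypes, edgeR called none of the 55 genes (0 of 55), and 1 of all 11286 genes (0.00886%). The lowest adjusted p of edgeR was that of Eif5b (0.649). Without adjustment, 6 of the 55 passed 0.05 (10.9%, with 7.02% of all genes), and DESeq2 called 0 of the 55. The test covers only a difference shared by resting and LPS-cultured cells. By pairs of libraries, none of the 55 was 2-fold apart at rest or after LPS, where 2.41% and 0.833% of all genes were at least 2-fold higher and 1.36% and 2.15% at least 2-fold lower in ΔIRIS cells. The median of the 55 log2 ratios, ΔIRIS over ΔleftPAL, stood at 0.08 in resting cells and at 0.10 after LPS.

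At rest, 6 of the 55 were at least 1.5-fold higher in ΔIRIS cells (10.9%, with 7.61% of all genes) and none was as much lower (5.33% of all genes), and after LPS no member was 1.5-fold higher or lower (2.60% and 5.64% of all genes). Eif5b was at 25.5 CPM in resting ΔleftPAL and 45.5 CPM in resting ΔIRIS cells, a log2 ratio of 0.83 (95% counting interval 0.70 to 0.97), and at 43.8 and 61.6 CPM after LPS, 0.49 (0.38 to 0.60). The other 5 were Eif2s2 (0.66), Eif3j2 (0.66), Eif5 (0.63), Eif3a (0.63) and Eif4e3 (0.60). Eif2s2 was at 75.7 and 119.7 CPM, Eif5 at 472 and 732 CPM and Eif3a at 263 and 407 CPM in resting ΔleftPAL and ΔIRIS cells. After LPS these 3 had log2 ratios of 0.27, 0.10 and 0.13, whereas Eif3j2 (-0.21) and Eif4e3 (-0.18) were on the other side of 0. The erythroid genes summed to 41238 CPM in resting ΔleftPAL and 28559 CPM in resting ΔIRIS cells and the myeloid genes to 288 and 385 CPM. Their part in these ratios was not tested.

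**Figure D5:**
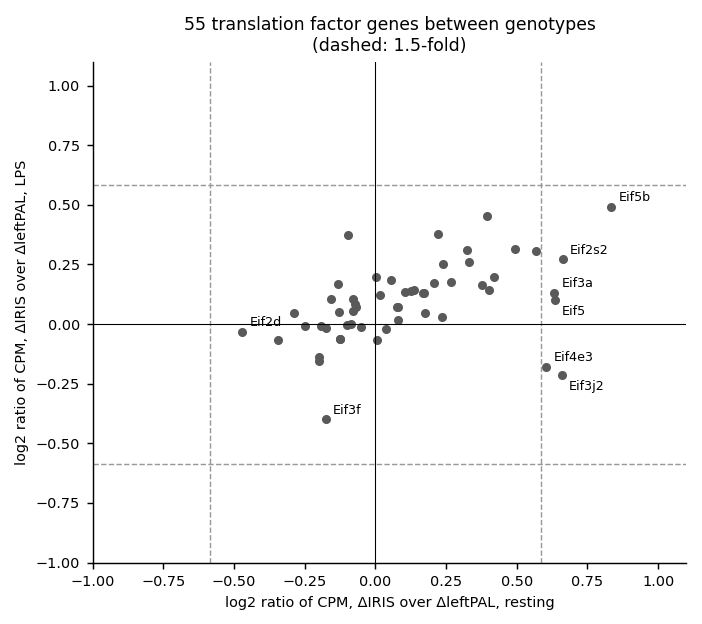
Log2 ratio of CPM, ΔIRIS over ΔleftPAL, at rest (horizontal) and after LPS (vertical) for the 55 genes tested, with dashed lines at 1.5-fold. Only points at rest pass the dashed line, 6 to the right, led by Eif5b (0.83), and none is beyond it after LPS.

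Among the 4 largest fitted rises, the log2 change on LPS was 2.22 and 2.23 for Eif5a, 2.03 and 1.99 for Eif1ax, 1.63 and 2.10 for Eef1e1 and 1.78 and 1.79 for Eif2s1 in ΔleftPAL and ΔIRIS cells. Among the 4 that fell it was -1.23 and -1.46 for Eif1, -0.64 and -0.62 for Eif4a2, -0.36 and -0.90 for Eif5 and -0.64 and -0.54 for Eif4g3. Eif3j2 had the widest gap of the 55, with 1.99 and 1.12. The lines were thus close for some of these genes and apart for others. With 1 library per genotype and condition, a difference between the genotypes in this change could not be tested. Eif3f and Eif4e3 had changes of opposite sign in the genotypes, 2 of the 55, as had 11.3% of all genes. The counting intervals of both genes in ΔleftPAL cells include 0.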

How the data were processed

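Total RNA of CD43-depleted splenocytes was sequenced after ribosomal depletion. Per the labels and the study's methods, the authors mapped pairs with STAR 2.4.0a to mm10 and deposited raw fragment counts per gene name from featureCounts (Subread 1.4.6-p1, Ensembl annotation, stranded, 1 primary place for reads with several). The authors also deposited kallisto 0.42.3 estimated counts and TPM per transcript, which were summed per gene, the estimated counts rounded for testing. A row without a gene name held at most 0.0264% of the counts and was left out. Library sizes were scaled by TMM on all named genes. The LPS and genotype terms were tested with edgeR 4.0.16 (glmQLFit, glmQLFTest) in R 4.3.3, additive over the 4 libraries, at an adjusted p under 0.05. Ratios of library pairs have exact (Clopper-Pearson) 95% intervals from scipy 1.17.1, which cover counting error only, and counts under 3 were set to 3. On data simulated for the LPS term over 11286 genes, 200 of 200 genes changed 4-fold, 180 of 200 changed 2-fold and 13 of 10886 unchanged genes were called. The simulation gave every gene the same variation beyond counting error and no difference between genotypes. It also changed far fewer genes than were called here, so it gives no error rate for the real fit. Transcript types came from GENCODE M21. Members, lists and tests were chosen with earlier results of these data known. Members named are, per role, the largest rise and fall and the highest level, fixed pairs of paralogs, and those 1.5-fold apart between genotypes. DESeq2 was 1.42.0. An item of the marker lists is not reported here.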

Additional observations from a re-analysis of the deposited data

Results flagged for a closer look

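Eif4e3 and Eif3f differed between the genotypes in the sign of their change on LPS, with 1 library per genotype and condition, so the difference was not tested. Eif4e3 had a log2 ratio of LPS over resting of 0.24 in ΔleftPAL and -0.55 in ΔIRIS cells, a difference of -0.78, with a 95% counting interval of -0.093 to 0.57 in ΔleftPAL and of -0.84 to -0.26 in ΔIRIS cells, from 137 and 178 reads in ΔleftPAL and 248 and 171 reads in ΔIRIS cells. Eif3f had ratios of 0.05 (-0.018 to 0.12) and -0.17 (-0.24 to -0.10), a difference of -0.22. In ΔleftPAL cells both intervals include 0, so the opposite signs were not beyond counting error. For each gene the intervals of the genotypes did not overlap, so the difference in size was beyond counting error. Such intervals leave out variation between libraries. Such opposite signs were found in 2 of the 55 genes (3.64%) and in 11.3% of all genes tested.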

How the results depend on the processing

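No paired analysis by replicate number was possible because each group has 1 library and the labels give no replicate numbers. The genotype term already sets each LPS library against the resting one of its line, and without it 45 members were called higher. Without 1 library no residual degree of freedom would remain. TMM factors from the genes tested alone were added after the data had been seen. The fitted LPS change of the 55 genes kept its call in 543 of 549 comparisons with another setting, the exceptions being Eif1b, Eif4e2 and Eif5b, and members called higher numbered 45 to 47. With kallisto estimated counts 57 members were tested and 6 were called lower, Eif4e1b and Eif4ebp3 being the added ones. In TPM, Eif4g2 went down (mean log2 change -0.67) and Eif4a1 over Eif4a2 after LPS in ΔIRIS cells was 0.914.

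At least 2-fold higher on LPS in TPM were 21 members in ΔleftPAL cells and 19 in both genotypes. At least 2-fold lower in ΔleftPAL cells, ΔIRIS cells and both were 0, 3 and 0 members in TPM, 2, 2 and 2 with a minimum of 10 counts (Eif4ebp3 being tested then), 3, 3 and 2 at 1.5-fold, and with kallisto estimated counts 2 in each genotype. TMM factors from the genes tested gave 2 in ΔIRIS cells. At 1.5-fold 6 members were higher in resting ΔIRIS cells. The median LPS log2 ratio in ΔleftPAL and ΔIRIS cells was 1.06 and 1.14 with total counts, 1.12 and 1.15 with DESeq2 size factors, 1.22 and 1.26 with kallisto estimated counts, 0.83 and 0.86 in TPM and 1.03 and 1.02 with TMM factors from the genes tested, and it exceeded the median of all genes by 1.00 to 1.06 throughout. The median genotype log2 ratio at rest was 0.046 with total counts and 0.043 in TPM. After LPS it was 0.12 with total counts and with DESeq2 size factors, 0.076 with TMM factors without immunoglobulin genes, 0.18 with kallisto estimated counts, 0.026 in TPM and 0.069 with TMM factors from the genes tested. Of all genes, those called higher and lower between genotypes numbered 1 and 17 with kallisto estimated counts, 13 and 32 without a filter, 11 and 26 with DESeq2, and 0 lower without the LPS term, none of them a member. The cause of these shifts was not tested.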
